A study of Mus musculus with 2 samples.

Results

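Cardiac conventional dendritic cells of type 1 (cDC1) were looked for among CD45+ cells of mouse hearts by a rule on marker genes, which found 162 cells among the 5263 kept. Members were chosen by these measured levels: a cell had to have at least 50 CPM, which are reads scaled to 1000000 reads of the cell, of at least 2 of *Xcr1*, *Clec9a*, *Itgae* and *Wdfy4*, with *Xcr1* or *Clec9a* among them. It also had to have less than 100 CPM of *Cd209a*, 500 CPM of *C1qa*, 200 CPM of *Cd79a* and 50 CPM of *Cd3g*, which mark cDC2, macrophages, B cells and T cells. Because these values chose the cells, they are given below as a description only, as is every other comparison of the chosen cells with the rest.

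The hearts came from male mice aged 8 weeks, labelled C57BL/6N, where the study's methods give the CD3ε-/- mice a C57BL/6 background without naming the substrain, and their CD45+ cells were taken 1 week after sham surgery or transverse aortic constriction (TAC), which narrows the aorta and loads the left ventricle with pressure. There were 5 groups: WT sham, CD3ε-/- sham, WT TAC, CD3ε-/- TAC, and WT mice with TAC that were also injected with an antibody to CD8, called here the group labelled CD8-depleted TAC. Where 5 values stand without a group, they follow this order. CD3ε-/- mice, labelled CD3eKO, carry a deletion in a chain of the T cell receptor complex in every cell and lack T cells from birth, whereas the antibody was given to adult WT mice. The cells of each group were marked with 1 hashtag and all were sequenced together, as 1 library made by TAS-Seq from BD Rhapsody beads, so each group was 1 pool of cells without a replicate, and how many mice were in a pool is not given in the sources used here. No test between groups was therefore possible, and the intervals below are exact 95% intervals for counting error alone.

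The labels were checked over all kept cells. *Cd3g*, a chain of the T cell receptor complex, was read in 53 of 1000, 3 of 835, 47 of 1615, 1 of 919 and 32 of 894 cells, and *Cd3e*, the targeted gene, at 17.8, 3.73, 10.8, 5.64 and 13.6 CPM, so the CD3ε-/- groups had the lowest levels. The share of cells with a *Cd3e* read did not follow the label, with 69, 42, 103, 83 and 51 cells, and was highest in CD3ε-/- TAC, at 9.03% (7.26 to 11.1). *Cd8b1*, which marks CD8+ T cells, was read in 8, 0, 12, 0 and 6 cells. Under the label CD8-depleted TAC the share, 0.671% (0.247 to 1.46), was thus close to the 0.743% (0.385 to 1.29) of WT TAC, and these transcripts do not show the depletion that its label names. Kept cells had a median of 75442, 78372, 98869, 117788 and 98471 reads, so the depth differed between the groups, and no cell name was shared between groups.

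cDC1 are the dendritic cells that take up dying cells and present their antigens to CD8+ T cells on MHC class I, a process called cross-presentation. Their development depends on the transcription factors IRF8 and BATF3 and on the growth factor receptor FLT3, and they bear the chemokine receptor XCR1 and the receptor CLEC9A, which binds actin laid bare in dead cells. In the heart they are a minor population beside the macrophages and cDC2, the dendritic cells that mainly present on MHC class II.

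The 162 cells were well covered, with a median of 191225 reads and 5852.5 genes each, against 92884 reads over all kept cells. By group the median was 149354, 193607, 201591, 256252 and 204622 reads. All 4 markers of the rule were at or above 50 CPM in 95 cells, 3 markers in 48 cells and 2 markers in 19 cells. *Wdfy4*, which is needed for cross-presentation, was past the limit in 161 cells, *Xcr1* and *Clec9a* in 145 each, and *Itgae*, the CD103 chain that binds E-cadherin, in 111. *Itgae* was the marker that differed most in how many cells carried it, with a read in 17 of 32, 24 of 30, 44 of 59, 15 of 16 and 13 of 25 cells. The lowest level inside the limit and the highest outside it were 116 and 37.4 CPM for *Xcr1*, 55.3 and 43.7 CPM for *Clec9a*, and 494 and 712 CPM for *C1qa*. A further 27 cells met the marker limits and were left out by *Cd209a*, *C1qa*, *Cd79a* or *Cd3g*.

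The name cDC1-like was checked against *Irf8*, which the rule did not use. *Irf8* had a level of 2619, 2207, 2915, 2737 and 2375 CPM when the reads of each group were added up, against 108 CPM in the 191 cDC2-like, 273 CPM in the 2527 macrophage-like and 418 CPM in the 466 B cell-like cells of the same library. It was read in 161 of 162 cells, and the cell without a read had the CD8-depleted label. Over the single cells the median of *Irf8* was 2656 CPM and the highest value 6066 CPM, and 4 cells were under 100 CPM. *Irf8* was at 2797, 2573 and 1522 CPM in cells with 4, 3 and 2 markers of the rule. The 19 cells with 2 markers also differed in *Lyz2*, a lysozyme of myeloid cells, with 4308 CPM against 1117 and 925 CPM, and 9 of them were WT TAC cells and 7 carried the CD8-depleted label.

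Other genes of cDC1 that the rule did not use were high in the same cells. *Naaa*, a lysosomal amidase, averaged 2740 CPM over the members and 245 CPM over all other kept cells, and *Septin3*, a septin of the cytoskeleton, averaged 671 and 5.35 CPM. *Tlr3*, the endosomal sensor of double-stranded RNA, averaged 292 and 12.7 CPM, *Flt3* 368 and 20.3 CPM, *Cd24a*, a small surface glycoprotein, 929 and 100 CPM, and *Ppt1*, a lysosomal thioesterase, 1394 and 149 CPM. *Zfp366*, a nuclear factor also called DC-SCRIPT, averaged 112 and 3.15 CPM, *Mycl*, a MYC family factor that dendritic cells use, 98.2 and 3.13 CPM, and *Snx22*, a sorting nexin, 180 and 1.41 CPM. The 20 genes of the largest ratio also included *Gcsam*, *Rtl8a*, *Rtl8b*, *Gpr141b*, *Dbn1*, *Jaml*, *Pianp*, *Gm43914* and *Fam149a*. Such genes lead by construction of the class, and no test was made of them.

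**Figure D1:**
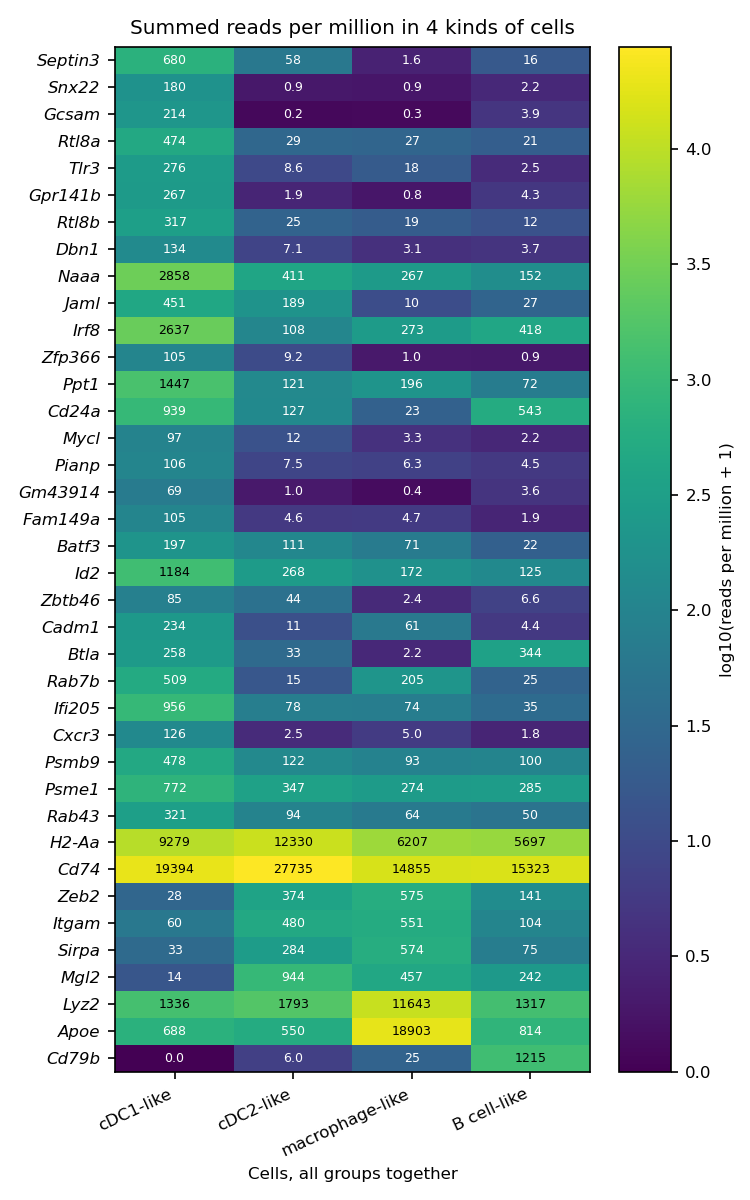
Summed level of each gene over all 5 groups in cDC1-like, cDC2-like, macrophage-like and B cell-like cells, with the colour on the log10(CPM + 1) scale and the CPM printed in each field. The column of cDC1-like cells holds *Irf8* at 2637 CPM, and that of cDC2-like cells holds it at 108 CPM, whereas *Sirpa* reads 32.7 and 284 CPM.

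Of 19 genes of MHC class I and cross-presentation, 14 had a higher level in cDC1-like than in cDC2-like cells, and of 12 genes of MHC class II presentation 2 did. The share over all genes is not given beside these counts, so they only describe the 2 lists. *Psmb9* and *Psme1*, parts of the immunoproteasome and of its activator, were at 478 and 772 CPM in cDC1-like and at 122 and 347 CPM in cDC2-like cells, and *Tap2*, which carries peptides to MHC class I, was at 178 and 48.2 CPM. *Rab43*, a small GTPase used in cross-presentation, was at 321 and 94.5 CPM. *H2-Aa* and *Cd74*, the class II alpha chain and the invariant chain, were lower in cDC1-like cells, at 9279 against 12330 CPM and 19394 against 27735 CPM. Of 14 cDC2 markers, *Sirpa* was lower, at 32.7 against 284 CPM, as were *Itgam*, at 60.1 against 480 CPM, and *Irf4*, at 4.70 against 65.3 CPM. *Zeb2*, which is not on that list, was at 28.3 against 374 CPM. Not all of the list were rare in cDC1-like cells. *Mgl2* and *Clec10a* were read in 2 and 6 of 162 members, but *Ccr2* in 151, *Klf4* in 123, *Cd300a* in 101 and *Clec4a2* in 93. *Kit*, *Cd86* and *Havcr2*, a growth factor receptor, a ligand of CD28 and the receptor TIM-3, were higher in cDC1-like cells, at 99.4 against 14.1, 246 against 73.7 and 162 against 33.7 CPM.

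Some markers of other cell types had no read, and others were read in many members. *Cd3g*, *Trac*, *Trbc2*, *Cd8b1*, *Nkg7*, *Gzma*, *Cd79a* and *Cd79b* had no read in any of the 162 cells, which for 3 cells would be a share of 1.85%. The rule itself set upper limits on *Cd3g* and *Cd79a*. From the same lists of markers, *Ighm* was read in 126 members, *Klrk1* in 110, *Mcpt4* in 106, *Cma1* in 102, *Tcf4* in 94 and *Cd3d* in 34. Of 14 monocyte and macrophage markers, 4, 3, 0, 0 and 0 had no read in a group. Their summed level was 2140, 2003, 2531, 3010 and 3810 CPM, and *Lyz2* and *Apoe* were at 1336 and 688 CPM against 11643 and 18903 CPM in macrophage-like cells. A read of *C1qa*, *C1qb*, *C1qc*, *Adgre1*, *Mrc1*, *Cd14* or *Fcgr1* was found in 7 of 32, 6 of 30, 15 of 59, 4 of 16 and 9 of 25 members, in all 41 of 162. Results that follow are also given without these 41 cells where that matters, a choice made after the data were seen. The fibroblast genes *Dcn*, *Col1a1* and *Col3a1* were read in 1 member, of WT sham.

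*Cd8a*, which dendritic cells can carry without *Cd8b1*, and which is thus a possible target of the antibody on these cells, was read in 1, 1, 2, 2 and 0 members, at 4.65, 2.25, 1.92, 13.3 and 0 CPM. Transcripts of the antibody's target were thus rare in the members of all groups. *Cd3e* was read in 8 members, at no more than 2.1 CPM in a group.

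The question of the first comparison was how many of the CD45+ cells were cDC1-like after TAC and without T cells. They were 32 of 1000 cells (3.20%, 2.20 to 4.49) in WT sham, 30 of 835 (3.59%, 2.44 to 5.09) in CD3ε-/- sham and 59 of 1615 (3.65%, 2.79 to 4.69) in WT TAC. In CD3ε-/- TAC they were 16 of 919 (1.74%, 0.998 to 2.81), while those labelled CD8-depleted TAC were 25 of 894 (2.80%, 1.82 to 4.10). The lowest share was that of CD3ε-/- TAC, 1.85 percentage points under CD3ε-/- sham and 1.91 points under WT TAC, and its interval overlapped that of every other group. The 95% intervals of these differences, combined from the exact limits of both shares (MOVER), ran from -3.52 to -0.28 and from -3.19 to -0.54 points, so that both lay below 0 for counting error, while the spread between mice is unknown. WT TAC and WT sham differed by 0.45 points, less than the width of either interval. Without the B cell-like cells in the denominator the shares were 3.55, 4.23, 3.88, 1.90 and 3.04%. As a share of all cDC1-like and cDC2-like cells, a denominator chosen after the data were seen, they were 43.2, 46.9, 47.2, 40.0 and 50%, and CD3ε-/- TAC was again the lowest, with an interval from 24.9 to 56.7% that held all 5 values. When each cell was first thinned to 69429 reads, which leaves out shallower cells, the shares were 5.39, 5.73, 4.70, 2.08 and 3.49%, and WT TAC then lay 0.68 points under WT sham.

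**Figure D2:**
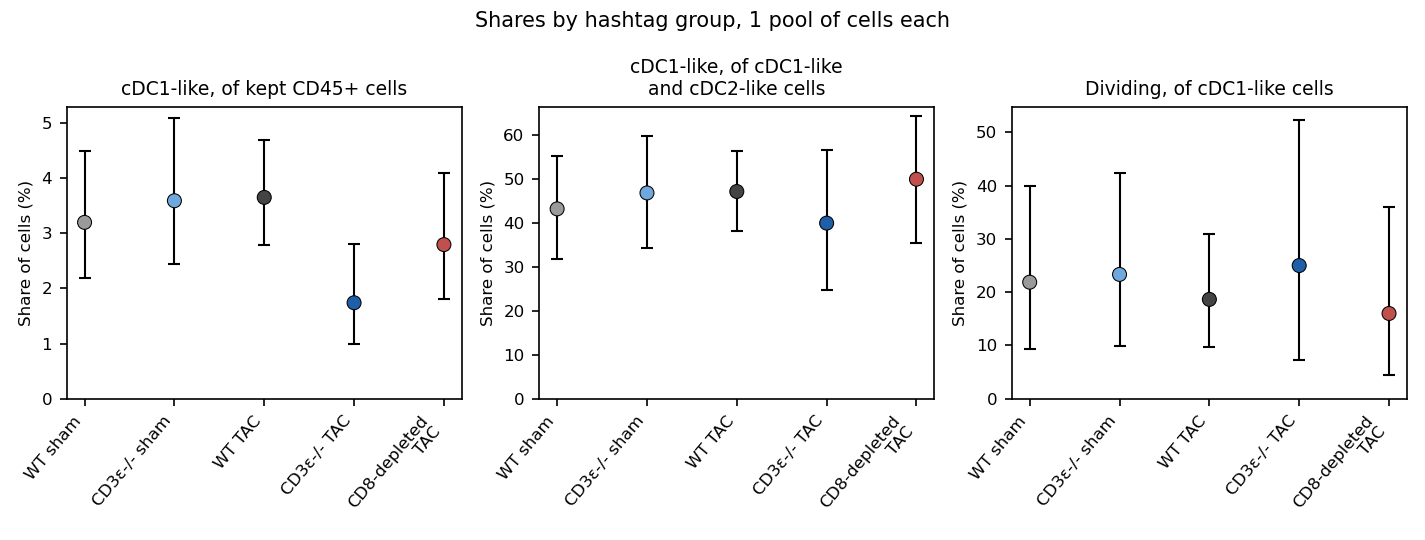
Share of cDC1-like cells among kept CD45+ cells (left) and among cDC1-like and cDC2-like cells (middle), and share of dividing cells among cDC1-like cells (right), in percent for the 5 groups, with exact 95% intervals for counting error. In the left panel CD3ε-/- TAC lies lowest at 1.74%, while in the other panels the intervals of all groups overlap widely.

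Levels between groups were compared as CPM of the summed reads, and a log2 ratio is that of the levels with 10 CPM added to both. A gene was looked at in a comparison when it had at least 50 CPM in 1 of the 2 groups, and it was counted as past the fold when its log2 ratio was at least 1 or at most -1. Between WT TAC and WT sham, 3.22% of 3846 genes were past the fold higher and 3.17% lower. Between CD3ε-/- TAC and CD3ε-/- sham, 8.19% of 3946 genes were higher and 4.23% lower, and here the median log2 ratio of all these genes was itself 0.11. For CD3ε-/- sham against WT sham the percentages were 2.63 and 3.67, for CD3ε-/- TAC against WT TAC 3.87 and 2.84, and for the group labelled CD8-depleted TAC against WT TAC 2.46 and 1.73. CD3ε-/- TAC had only 16 members and the fewest reads, and the share of genes past the fold was highest in a comparison that holds it. The 5 comparisons share groups, so that their values can be set side by side but are no repeats of one another.

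The identity genes were close between the groups. Of 26 genes of cDC1 identity outside the rule, 22 were higher and 4 lower in WT TAC than in WT sham, with a median log2 ratio of 0.38, and 19 were higher and 7 lower between CD3ε-/- TAC and CD3ε-/- sham, with a median of 0.31. In these 2 comparisons 58.6 and 48.4% of all genes read were higher, and 53.0 and 57.8% of those looked at. Of the 23 identity genes that had at least 50 CPM in both groups, 0 were past the fold in WT mice, whereas in CD3ε-/- mice 2 were past it higher and 1 lower. *Naaa* had a level of 2534, 2535, 3069, 3444 and 2574 CPM, which is higher in both TAC groups without the antibody than in either sham group. *Ifi205*, an interferon-inducible gene that cDC1 carry, was at 638, 549, 1218, 1192 and 904 CPM, lower in both sham groups than in any TAC group. *Cadm1*, an adhesion molecule of cDC1, and *Cd36*, a scavenger receptor, went the other way, at 346, 312, 195, 159 and 186 CPM and at 470.5, 480.3, 244, 196 and 196 CPM. *Id2*, a partner of transcription factors that cDC1 need, was at 1005, 628, 1580, 1327 and 907 CPM, the lowest in CD3ε-/- sham. *Cxcr3*, a chemokine receptor, was at 112, 64.2, 174, 137 and 82.4 CPM. Against WT TAC, the group labelled CD8-depleted TAC had 4 of the 26 genes higher and 22 lower, with a median of -0.30, and none of the 23 well-read genes was past the fold. Over all genes read in this comparison 41.6% were higher, and over those looked at 53.1%.

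**Figure D3:**
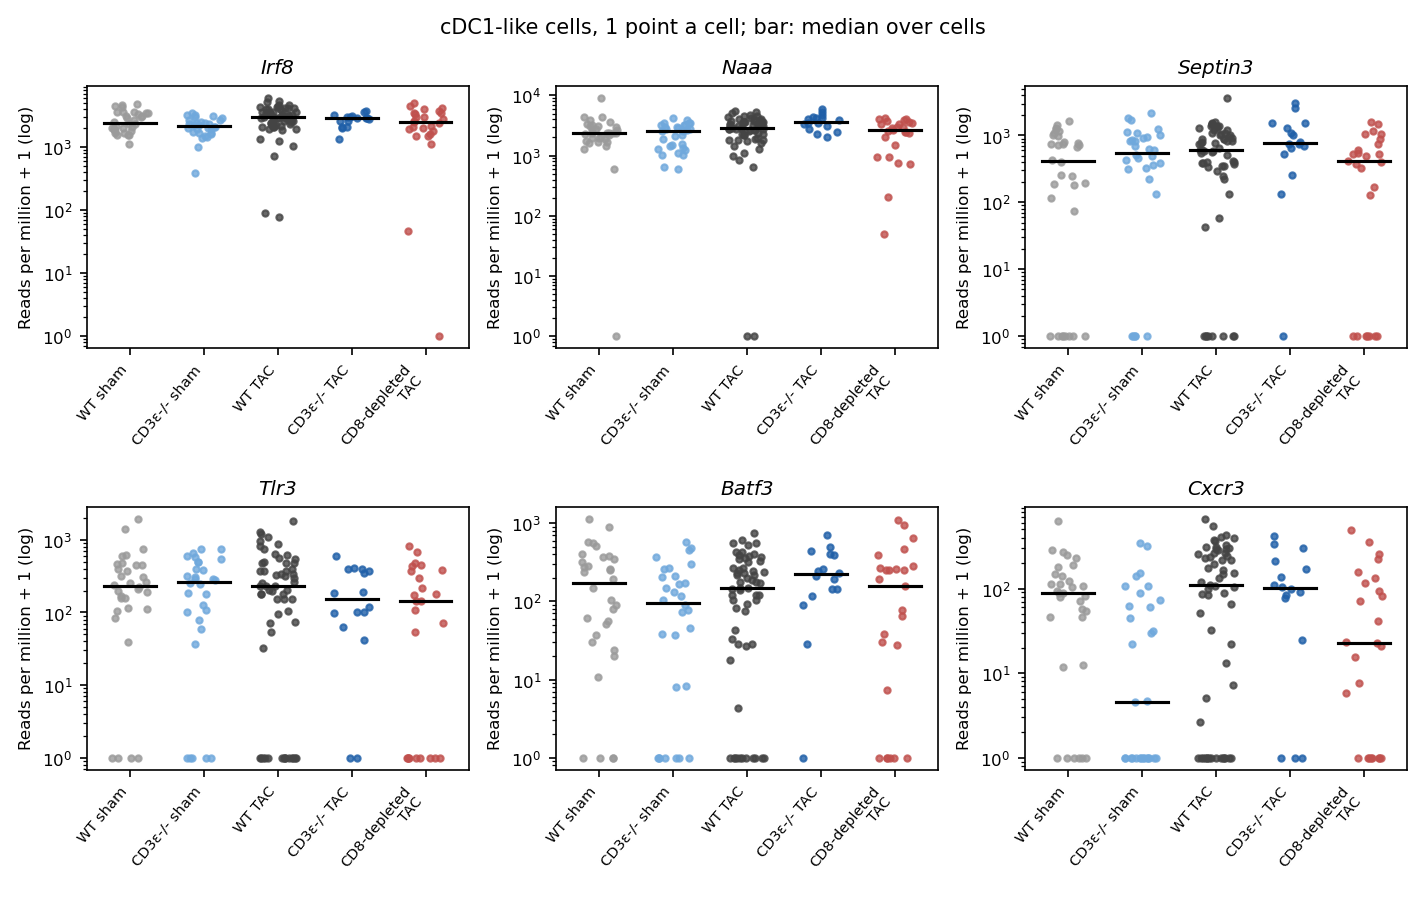
Level of *Irf8*, *Naaa*, *Septin3*, *Tlr3*, *Batf3* and *Cxcr3* in each cDC1-like cell, as CPM + 1 on a log axis, by group, with a bar at the median. *Irf8* and *Naaa* lie above 1000 CPM in most cells of every group, while *Batf3* and *Cxcr3* are at 0 in 29 and 46 of the 162 cells.

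Single cells of 1 group covered a wide range. In WT TAC, *Irf8* ran from 76.9 to 6066 CPM around a median of 2998.5 CPM, and in CD3ε-/- TAC from 1372 to 3697 CPM around 2882 CPM. *Septin3* had no read in 8, 5, 8, 1 and 7 cells, and the highest cell, of WT TAC, had 3642 CPM. *Cxcr3* had a median over cells of 87.5, 3.62, 109, 101 and 21.7 CPM, and each group held cells at 0.

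Genes induced by type I interferon had high median ratios between TAC and sham in both genotypes. Interferon alpha and beta act through a common receptor on elements whose core is GAAA, 2 bases of any kind and GAAA again, and the genes they induce limit the spread of viruses. Of 20 genes read, 19 were higher and 1 lower in WT TAC than in WT sham, with a median log2 ratio of 1.66. Between CD3ε-/- TAC and CD3ε-/- sham 17 were higher and 2 lower of 19, with a median of 1.22. Over all genes looked at, these medians were 0.03 and 0.11, and of all genes read 58.6% and 48.4% were higher in TAC. *Ifi205*, above, is not on this list.

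The genes of the list with the most reads included *Irf7*, the factor that amplifies the interferon response, *Isg15*, a ubiquitin-like modifier, and *Bst2*, the tetherin that holds budding virus at the membrane. *Irf7* had a level of 51.9, 20.6, 263, 220 and 350.3 CPM, with a read in 8 of 32, 3 of 30, 26 of 59, 10 of 16 and 12 of 25 cells. *Bst2* was at 67.3, 54.8, 156, 248 and 175 CPM, with a read in 13, 11, 35, 14 and 14 cells. *Isg15* was at 11.1, 5.19, 148, 165 and 267 CPM, with a read in 3, 3, 14, 4 and 9 cells. For all 3 genes each TAC group was above each sham group. The log2 ratios were 2.14, 1.11 and 2.91 in WT and 2.91, 1.99 and 3.52 in CD3ε-/- mice. In cells thinned to the same depth, *Irf7* was read in 26.7, 7.41, 46.2, 64.3 and 50% and *Bst2* in 43.3, 40.7, 63.5, 92.9 and 59.1%, against 19.5 and 30.5% in the 128 B cell-like cells that reached this depth. The counting intervals of *Irf7*, 46.1 to 58.2 CPM in WT sham and 255 to 272 CPM in WT TAC, are narrow, because they cover reads and not the spread between cells.

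That spread was wide. A single cell of WT TAC held 60.4% of the reads of this list in its group, with 19 of the 20 genes read in it. It had 616232 reads, the most of any member, and it was among the dividing cells and among those with a macrophage gene. The cell with the most reads of the list held 22.0% in WT sham, 15.7% in CD3ε-/- sham, 41.5% in CD3ε-/- TAC and 39.0% under the label CD8-depleted TAC, where it also had a macrophage gene. The latter cell met the rule but had *Irf8* at 45.9 CPM and no read of *Flt3*, *Batf3*, *Tlr3*, *Septin3* or *Cd24a*, whereas the cell of WT TAC had *Irf8* at 729 CPM and that of CD3ε-/- TAC at 3697 CPM. Without these 5 cells, the median log2 ratio was 0.76 in WT, with 15 genes higher and 3 lower, and 0.80 in CD3ε-/- mice, with 14 higher and 4 lower. With the same kind of cell left out for their own list, the monocyte and macrophage markers had medians of 0.31 and 1.37, the latter above the interferon list. The summed level of the list was then 211, 221, 612, 666 and 1054 CPM, against 257, 260, 1473, 1051 and 1675 CPM with them, so that each TAC group remained above each sham group. Without the dividing cells the medians were 0.65 and 1.27, and without the 41 cells with a macrophage gene 0.49 and 0.95. The last change lowered the summed level under the label CD8-depleted TAC to 315 CPM, close to the 292 CPM of WT sham, while WT TAC and CD3ε-/- TAC were at 643 and 1007 CPM. The part of macrophage transcripts or of several cells under 1 barcode in these values was not tested.

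Counted by cell, 4 of 32, 4 of 30, 17 of 59, 7 of 16 and 7 of 25 members had a read of at least 5 of the 20 genes, a limit set after the data were seen. These are 12.5% (3.51 to 29.0), 13.3% (3.76 to 30.7), 28.8% (17.8 to 42.1), 43.8% (19.8 to 70.1) and 28% (12.1 to 49.4), and all intervals overlap. At equal depth they were 3 of 30, 2 of 27, 14 of 52, 7 of 14 and 6 of 22 cells. The same list was also higher after TAC in the other phagocytes. Its median log2 ratio in WT mice was 1.77 in cDC2-like and 1.05 in macrophage-like cells, and in CD3ε-/- mice 1.08 and 1.33. Set beside WT TAC, CD3ε-/- TAC had 5 genes of the list higher and 15 lower, with a median of -0.50, and without the cell of each group with the most reads 10 higher and 8 lower, with a median of 0.19, so that the direction between these groups rested on single cells. For the group labelled CD8-depleted TAC it was 14 higher and 6 lower, with a median of 0.35. Without the cells with a macrophage gene it was 2 higher and 14 lower, with a median of -0.65. Without the cell of each group with the most reads it was 17 higher and 3 lower, with a median of 0.73. Without dividing cells it was 19 higher and 1 lower, with a median of 1.67, so that the direction depended on which cells were left out.

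The sequences before the start of these 3 genes are shown because their transcripts were higher together in the TAC groups, and they were picked after the values were seen. Capitals mark this core on either strand, where overlapping matches run into one stretch. The 250 bases before the start are given 5′ to 3′ on the strand of the gene, from RefSeq on GRCm38.p6, for *Isg15* at chr4:156200819-156201068, for *Bst2* at chr8:71537473-71537722 and for *Irf7* at chr7:141266425-141266674, all on the minus strand.
Isg15: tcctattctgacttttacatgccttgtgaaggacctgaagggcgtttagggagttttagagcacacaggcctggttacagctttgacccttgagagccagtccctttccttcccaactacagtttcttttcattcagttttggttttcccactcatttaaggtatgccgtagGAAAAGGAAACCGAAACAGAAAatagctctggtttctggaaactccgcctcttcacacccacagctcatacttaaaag
Bst2: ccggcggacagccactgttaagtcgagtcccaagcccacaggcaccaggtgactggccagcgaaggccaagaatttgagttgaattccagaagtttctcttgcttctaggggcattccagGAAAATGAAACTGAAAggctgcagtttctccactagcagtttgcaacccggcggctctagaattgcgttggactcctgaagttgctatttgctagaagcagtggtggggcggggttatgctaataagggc
Irf7: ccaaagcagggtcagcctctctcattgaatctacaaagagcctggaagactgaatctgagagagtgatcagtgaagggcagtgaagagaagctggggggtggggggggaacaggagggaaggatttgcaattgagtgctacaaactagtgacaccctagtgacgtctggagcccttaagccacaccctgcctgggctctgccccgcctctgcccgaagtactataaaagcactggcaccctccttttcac

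*Isg15* held 3 overlapping matches, the first beginning 78 bases before the start, *Bst2* held 2, the first at 130 bases, and *Irf7* held none in this window. Of the 19 promoters given for 16 genes of the list, 7 held the element, against 2.98% of all 32851 promoters. The element TGANTCA, which AP-1 and BATF factors can bind, was in 4 of the 19 and in 6.75% of all promoters. Of the 19 promoters given for 15 of the 20 leading genes of cDC1-like cells, 2 held the interferon element and 0 held TGANTCA. A match is a description of these letters and shows no binding.

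Other interferon genes followed less clearly. *Xaf1*, which counters an inhibitor of apoptosis, was at 18.2, 23.7, 60.1, 67.6 and 67.7 CPM, lower in both sham groups than in any TAC group. *Mx1*, an antiviral GTPase, was at 37.7, 80.8, 251, 51.9 and 96.3 CPM, but 74% of its reads in WT TAC were in 1 cell, and in CD3ε-/- mice its log2 ratio was -0.55. *Ifit2*, which binds foreign RNA, had 89% of its reads in WT TAC in 1 cell. Of 16 genes of the response to interferon gamma, 12 were higher and 4 lower in WT TAC, with a median of 0.31, and 11 were higher and 4 lower of 15 in CD3ε-/- mice, with a median of 0.23. *Irf1*, an early target of interferon gamma, was highest in WT sham, at 150.1, 64.2, 61.8, 46.3 and 50.8 CPM.

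Immediate early genes, which cells switch on soon after a stimulus and which tissue digestion can also induce, were lower after TAC. Of 17 genes, 16 were lower and 1 higher in WT TAC than in WT sham, with a median log2 ratio of -0.54, and 16 were lower and 1 higher in CD3ε-/- TAC than in CD3ε-/- sham, with a median of -0.76. *Nr4a1*, an orphan nuclear receptor, was at 613, 714, 168, 168 and 206 CPM. *Atf3* and *Fosb*, factors of the AP-1 family, were at 844, 777, 334, 202 and 486 CPM and at 1147, 1360, 654, 311 and 529 CPM. *Klf2*, a factor of the Krüppel family, was at 797, 594, 346, 221 and 284 CPM. For these 4 genes both sham groups were above all 3 TAC groups, and the log2 ratios lay between -0.80 and -1.80 for WT and between -1.39 and -2.09 for CD3ε-/- mice. *Klf4*, of the list of cDC2 markers, showed the same order, at 641, 750.4, 191, 212 and 137 CPM. *Btg2*, an inhibitor of growth, was the exception in WT, at 766, 889, 804, 752 and 680 CPM.

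The medians kept their sign without the cells that held the most reads. Without the cell of each group with the most reads of the list, the medians were -0.56 and -0.72, and without dividing cells -0.41 and -0.57. The summed level of the list was 16558, 15609, 11496, 9367 and 10856 CPM. In cDC2-like cells all 17 genes were lower in WT TAC, with a median of -0.80, whereas in CD3ε-/- mice 5 were higher and 12 lower, with a median of -0.07, and in macrophage-like cells the medians were -1.11 and -1.08. Each group was prepared as 1 pool, so that preparation and surgery cannot be told apart in these genes.

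**Figure D4:**
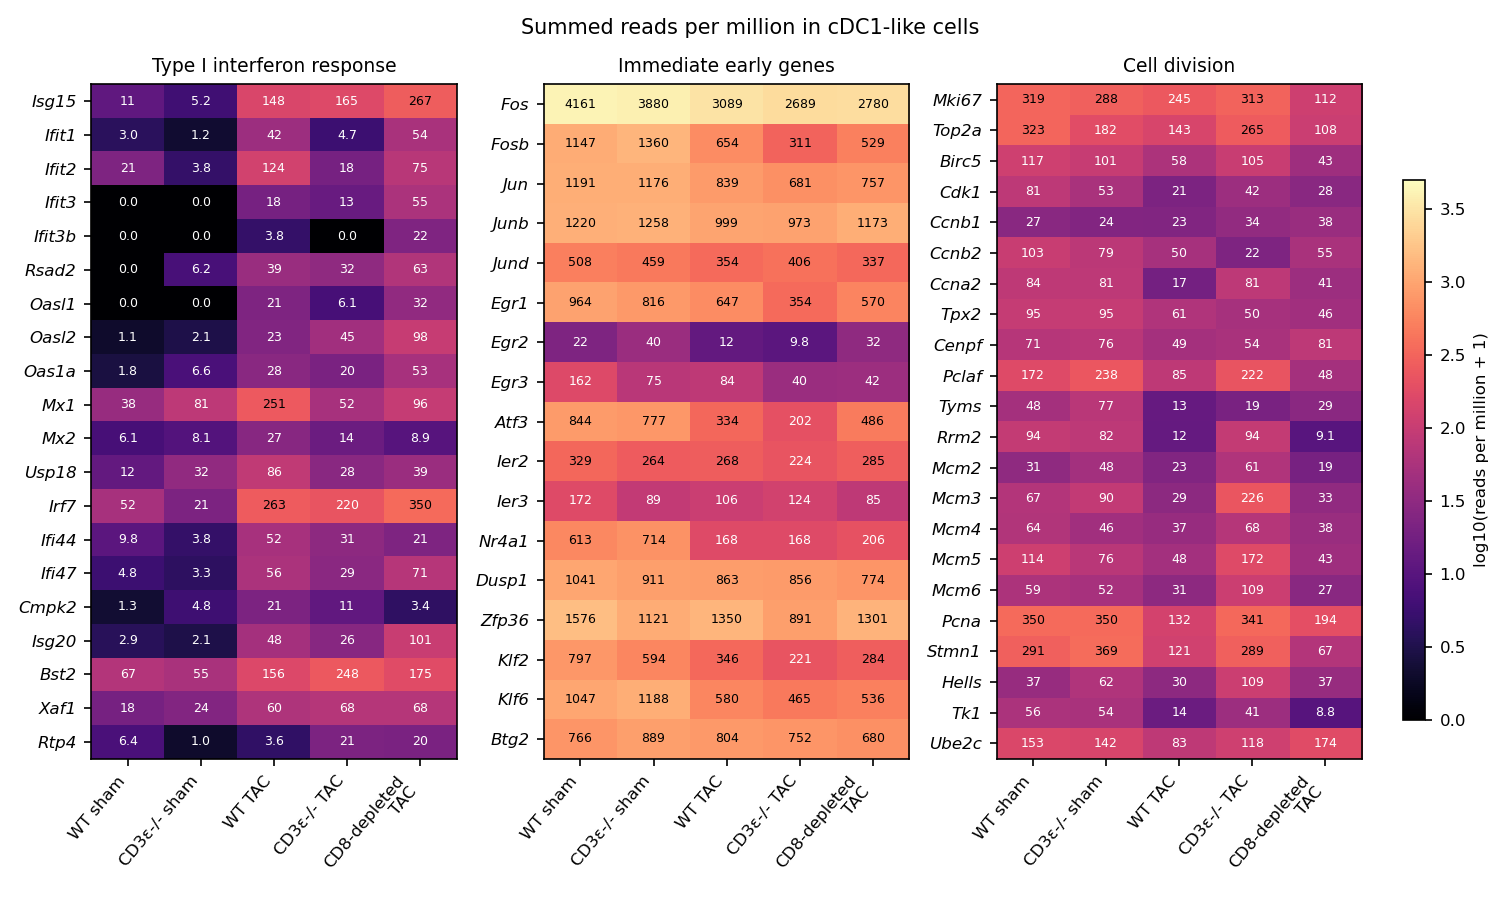
Summed level of the genes of the type I interferon response, the immediate early genes and the cell division genes in cDC1-like cells of the 5 groups, with the CPM printed in each field and the colour on the log10(CPM + 1) scale. *Irf7* and *Isg15* are lighter, which is higher, in the 3 TAC groups, *Nr4a1* and *Atf3* in the 2 sham groups, and *Mcm3* in CD3ε-/- TAC, at 226 CPM.

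Dividing cells were counted by a read level of at least 20 CPM of at least 3 of 7 genes of mitosis. By this measure 33 of 162 cDC1-like cells (20.4%, 14.5 to 27.4) were dividing, and 25 of 191 cDC2-like cells (13.1%, 8.65 to 18.7). By group there were 7 of 32 (21.9%, 9.28 to 40.0), 7 of 30 (23.3%, 9.93 to 42.3), 11 of 59 (18.6%, 9.69 to 30.9), 4 of 16 (25%, 7.27 to 52.4) and 4 of 25 (16%, 4.54 to 36.1). The intervals overlapped throughout, and 4 further cells were 1 gene short. Dividing members had a median of 235292 reads and the others 176407 reads.

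All 22 cell division genes were lower in WT TAC than in WT sham, with a median log2 ratio of -0.92, while the share of dividing cells had overlapping intervals. In CD3ε-/- mice 11 were higher and 11 lower after TAC, with a median of 0.02, and CD3ε-/- TAC stood above WT TAC for 20 of the 22, with a median of 0.96, where 40.4% of all genes read and 54.2% of those looked at were higher. Their summed level was 2756, 2665, 1326, 2835 and 1277 CPM. *Mki67*, which marks cycling cells, was at 319, 288, 245, 313 and 112 CPM, and *Pcna*, the clamp of the DNA polymerase, at 350.4, 349.5, 132, 341 and 194 CPM. *Rrm2*, which makes deoxynucleotides, was at 94.3, 82.0, 12.1, 93.5 and 9.12 CPM, read in 4, 5, 4, 3 and 2 cells. *Mcm3*, of the replicative helicase, was highest in CD3ε-/- TAC, at 66.7, 90.1, 28.9, 226 and 32.7 CPM. Each group had 4 to 11 dividing cells, so that these levels rest on few cells. Without the dividing cells, 6 genes were higher and 14 lower in WT TAC than in WT sham, and CD3ε-/- TAC stood above WT TAC for 10 of 20 genes, with a median of 0.07. The summed level was then 563, 392, 383, 786 and 436 CPM, still highest in CD3ε-/- TAC.

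Mature dendritic cells migrate to lymph nodes, and the rule, which needs *Xcr1* or *Clec9a*, cannot show whether mature cDC1 were present. No member had a read of *Ccr7*, the receptor that leads dendritic cells to the node, or of *Fscn1*, an actin bundler of mature dendritic cells. With a limit of 50 CPM of at least 2 of *Ccr7*, *Fscn1*, *Cacnb3*, *Socs2* and *Il4i1*, 0 of 162 members were mature, and 13 were 1 gene short. Among the other kept cells 100 of 5101 (1.96%, 1.60 to 2.38) passed this limit. The 19 cells outside the B cell-like class with both *Ccr7* and *Fscn1* had no read of *Xcr1*, *Clec9a* or *Itgae*, and had *Irf8* at 741 CPM, *Batf3* at 217 CPM and *Flt3* at 241 CPM, and none of them could have passed the rule. *Il12b*, the cytokine chain by which cDC1 drive Th1 and CD8+ T cells, was at most at 6.26 CPM in a group, and *Il12a* had no read.

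Of 12 MHC class II genes looked at, 1 was past the fold higher after TAC in WT and 2 in CD3ε-/- mice. Over all genes looked at, 3.22% and 8.19% were past it higher. Of 12 MHC class II genes, 11 were higher in WT TAC than in WT sham, with a median of 0.12, and 4 were higher in CD3ε-/- TAC than in CD3ε-/- sham, with a median of -0.15. *Cd74* was at 19579.5, 21149, 19795, 17731 and 17732 CPM and *H2-Aa* at 10034, 9522, 9261, 9006 and 8524 CPM. *Ciita*, the master factor of class II genes, was at 336, 372, 584, 477 and 477 CPM, lower in both sham groups. *Ifi30*, a thiol reductase that unfolds antigens, and *Ctss*, the protease that trims the invariant chain, were the members of the list past the fold between TAC and sham, at 255, 314, 561, 759 and 756 CPM and at 436, 489, 828, 1054 and 1309.5 CPM. *Ctss* was past it only between the CD3ε-/- groups, where its log2 ratio was 1.09, and without the cells with a macrophage gene it was 0.68. *Ifi30* kept a ratio of 1.13 in WT and 1.09 in CD3ε-/- mice without those cells. Of 19 genes of MHC class I and cross-presentation, 17 were higher and 2 lower in WT TAC, with a median of 0.29. In CD3ε-/- TAC 15 were higher and 4 lower, with a median of 0.21. Of the 17 looked at, 1 was past the fold in each genotype, *Cybb*, which was higher after TAC. Of the 16 with 50 CPM in both groups, 0 were past it in either genotype. *B2m* was at 2068, 2087, 2599, 2177 and 2686 CPM, and *Tap1* at 254, 264, 280, 281 and 236 CPM.

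Among costimulators, *Cd86* was even, at 222, 230.2, 277, 241 and 221 CPM, and *Cd83*, which keeps MHC class II at the surface, was at 224, 366, 108, 107 and 125 CPM, higher in both sham groups than in any TAC group. *Cd40*, the receptor for help from T cells, was at 5.37, 5.36, 50.1, 18.0 and 23.6 CPM, of which 70% in WT TAC came from 1 cell. *Il1b*, an inflammatory cytokine, was at 49.0, 226, 116, 43.5 and 468 CPM, and its log2 ratio for the group labelled CD8-depleted TAC against WT TAC was 1.92, and -0.28 without the cells with a macrophage gene. *Cxcl9*, which draws T cells through CXCR3, was at 44.2, 13.3, 248, 17.3 and 41.3 CPM, with 94% of its reads in WT TAC in 1 cell. *Ccr2*, the receptor for CCL2, was high in all groups, at 803, 972, 1044, 849 and 1124 CPM. *P2ry10*, a receptor for lysophospholipids, was at 327, 204, 141, 163 and 154 CPM, and *Gpr183*, which senses oxysterols and places dendritic cells in lymphoid tissue, at 97.9, 109, 41.9, 84.2 and 61.3 CPM. Both were lower in all TAC groups than in either sham group.

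The lysosomal genes were higher after TAC in CD3ε-/- mice, and macrophage markers were higher beside them. Of 17 genes read, 16 were higher and 1 lower in CD3ε-/- TAC than in CD3ε-/- sham, with a median of 1.08, and 14 of 16 were higher in WT TAC, with a median of 0.34. Of the 14 looked at in CD3ε-/- mice, 8 were past the fold higher, where 8.19% of all genes looked at were. Of the 11 with at least 50 CPM in both CD3ε-/- groups, 5 were past the fold. *Ctsb* was at 339, 323, 431, 797 and 469 CPM, with 58% of the reads of CD3ε-/- TAC in 1 cell, and *Ctsd* at 20.8, 43.4, 86.9, 216 and 92.9 CPM, with 94% there in 1 cell. Without the cells with a macrophage gene, the medians were 0.42 in CD3ε-/- and -0.13 in WT mice, where 7 genes were then higher and 9 lower. Of the 14 macrophage markers, 13 were higher after TAC in each genotype, with medians of 0.46 and 0.84. *Hspa8*, a chaperone of protein folding and of uptake into lysosomes, was at 1957, 1490.2, 2161, 3632 and 1908 CPM, and no more than 14% of its reads in a group came from 1 cell.

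Of the other lists, those of oxidative phosphorylation and of actin and endocytosis had medians between 0.00 and 0.21 in every comparison. Glycolysis and hypoxia genes were higher in the group labelled CD8-depleted TAC than in WT TAC for 16 of 18, with a median of 0.54, among them *Gapdh* at 1025 and 766 CPM. Heat shock genes had a median of -0.26 in WT and 0.41 in CD3ε-/- mice after TAC. Transcription factors of the dendritic lineage had medians of 0.12 and 0.49, with *Batf3* at 221, 147, 194, 219 and 217 CPM and *Zfp366* at 102, 57.6, 107, 120 and 143 CPM.

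**Figure D5:**
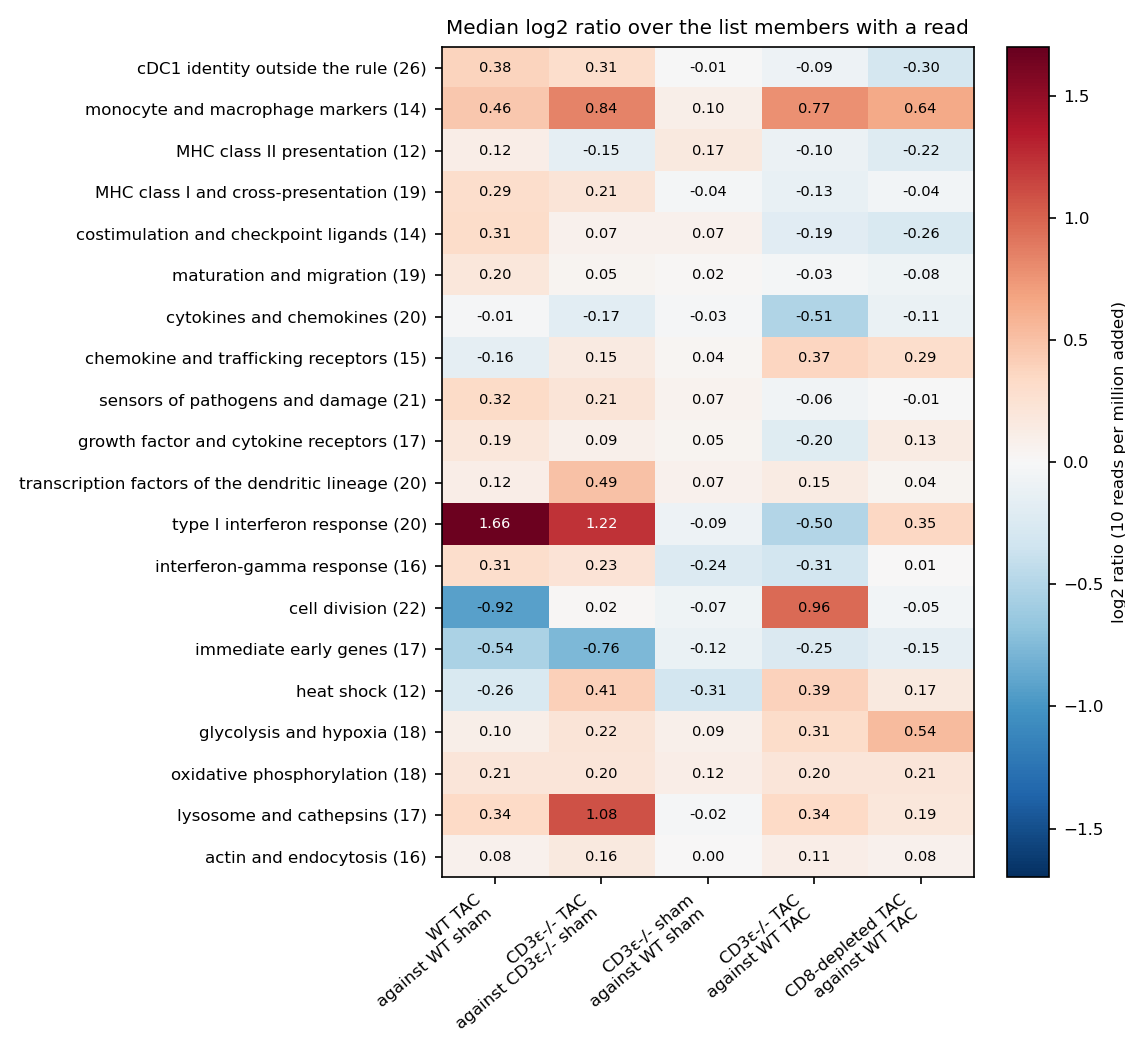
Median log2 ratio (with 10 CPM added) over all members read of each gene list in cDC1-like cells, with 1 column for each of the 5 comparisons. The highest fields are the type I interferon response in the columns of TAC against sham, at 1.66 and 1.22, and the lowest is cell division in WT TAC against WT sham, at -0.92.

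Single genes were named where the share of cells with a read at equal depth moved with the level and the intervals of the 2 shares did not overlap. This rule did not ask for a level past the fold. In WT TAC against WT sham, 42 genes met this higher and 5 lower. *Plac8*, a small protein of immune cells, was at 39.2, 156, 478, 669.6 and 995 CPM, and at equal depth it was read in 53.8% of WT TAC and 20% of WT sham cells. *Flot1*, a scaffold of membrane rafts, was at 17.7, 5.36, 115, 161 and 105 CPM, with a read in 73.1 against 30% of thinned cells. *H2-Q7*, a nonclassical class I gene with close relatives among which reads may be split, was at 70.8, 172, 285, 186 and 147 CPM, and *Ms4a6c*, a membrane protein of myeloid cells, at 49.2, 118, 219, 268 and 393 CPM. *Gpr82* and *Htr7*, an orphan receptor and a serotonin receptor, were at 71.7 against 8.23 and 61.7 against 6.98 CPM. *Wfdc17*, a secreted protease inhibitor of phagocytes, was at 80.5 against 22.0 CPM, and *Phf23* at 58.3 against 13.6 CPM. Genes named by this rule, here and below, are given over all members. The part of cells with a macrophage gene in these values was not tested.

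The 5 lower genes were *Nr4a3*, at 6.24 against 60.6 CPM, *Ltb4r1*, a receptor for leukotriene B4, at 5.31 against 53.7 CPM, *Irf1* and *Gpr183*, above, and *Itga1*, a collagen receptor chain, at 35.6 against 91.6 CPM. *Nr4a3*, of the same family as *Nr4a1*, had 60.6 and 73.7 CPM in the sham groups and no read in CD3ε-/- TAC or under the label CD8-depleted TAC. *Plac8* and *Flot1* were above both sham groups in all TAC groups. In cDC2-like cells *Plac8* was at 62.9, 174, 276, 619 and 678 CPM, the same order as in cDC1-like cells.

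In CD3ε-/- TAC against CD3ε-/- sham, 48 of the 3946 genes looked at met this rule higher and 5 lower. *Flot1* was at 161 against 5.36 CPM, *Wfdc17* at 161 against 6.74 CPM, *Irf7* at 220 against 20.6 CPM and *Emb*, a partner of monocarboxylate transporters, at 70.1 against 1.04 CPM. *Itgam*, the CD11b chain of cDC2 and macrophages, was at 135 against 17.3 CPM, with 62% in 1 cell, and the others of the 8 were *Myef2*, *Tdgf1* and *Cyhr1*. Lower were *Jup*, a catenin of junctions, at 8.65 against 94.1 CPM, *Qpct*, which forms pyroglutamate, at 31.8 against 198 CPM, *Tagap*, at 9.35 against 82.3 CPM, *Hepacam2*, at 53.8 against 233 CPM, and *St6gal1*, a sialyltransferase, at 7.71 against 55.9 CPM. *Qpct* and *Hepacam2* were also lower in WT TAC than in WT sham, at 54.0 against 165 and 131 against 239 CPM. Over both genotypes, 55 of 3387 genes looked at in both were past the fold in the same direction and 13 in opposite directions.

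Between CD3ε-/- sham and WT sham, 8 of the 3760 genes looked at met the same rule higher and 6 lower. *Ldb1*, a cofactor of LIM proteins, was at 97.2 against 8.77 CPM, *Trpm2*, a calcium channel, at 68.0 against 9.84 CPM, and *Klhl6*, an adaptor of a ubiquitin ligase, at 113 against 29.2 CPM. *Ccdc82*, *Map2k1*, *Ubald1*, *Ddost* and *Usp14* were the others that were higher, the last 3 with log2 ratios of 0.74, 0.69 and 0.63, short of the fold. The lower genes were *Wdfy1*, an adaptor of TLR3 signalling, at 4.5 against 109 CPM, *Gm46620* at 53.3 against 214 CPM, and *Sbno2*, *Srsf1*, *Orai1* and *Arhgap17*. The log2 ratios of *Srsf1*, *Orai1* and *Arhgap17* were -0.77, -0.60 and -0.09, short of the fold. *Arhgap17* was at nearly the same level, 87.9 against 93.9 CPM. Its share of thinned cells with a read was 59.3 against 93.3%.

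*Wdfy1* and *Gm46620* were low in both CD3ε-/- groups. *Wdfy1* was at 109, 4.5, 79.3, 14.5 and 113 CPM, with a read in 20 of 32, 6 of 30, 41 of 59, 8 of 16 and 19 of 25 cells. *Gm46620* was at 214, 53.3, 293, 51.9 and 222 CPM, with a read in 26, 15, 52, 10 and 23 cells. For both genes every WT group was above both CD3ε-/- groups. The same held in cDC2-like cells, with *Wdfy1* at 26.5, 7.54, 36.8, 5.41 and 21.6 CPM and *Gm46620* at 202, 47.4, 207, 32.4 and 268 CPM. In macrophage-like cells *Gm46620* was at 101, 37.6, 147, 38.0 and 166 CPM and *Wdfy1* at 30.3, 13.4, 59.3, 19.3 and 51.8 CPM.

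After TAC, CD3ε-/- stood above WT by this rule for 23 of the 3982 genes looked at and below for 3. Higher were *Itgam* at 135 against 34.9 CPM, *Vps25*, a part of the endosomal sorting machinery, at 95.4 against 33.6 CPM, *Dnpep*, a peptidase, at 69.9 against 19.9 CPM, and *Fam136a*, *Phf2*, *Myef2*, *A430005L14Rik* and *Arfrp1*. Lower were *Gm46620*, *Gm42428* at 24.1 against 84.1 CPM and *Cd244a*, a receptor of the SLAM family, at 25.7 against 73.8 CPM. The group labelled CD8-depleted TAC stood above WT TAC for 7 of the 3868 genes looked at and below for 8. *Med6*, a subunit of the Mediator complex, was at 51.7 against 7.62 CPM and *Snrk*, a kinase, at 77.0 against 16.6 CPM, and *Glipr2*, *Med9*, *Ap4s1* and *Rab24* were among the others that were higher. *Siglecg*, an inhibitory lectin, was at 27.3 against 81.9 CPM and *Tsc22d3*, a gene that glucocorticoids induce, at 110.5 against 251 CPM. *Bola2*, *Paxbp1*, *Zfp62*, *Slc4a7*, *Ankrd17* and *Smarcc1* made up the others that were lower. *Slc4a7*, *Ankrd17* and *Smarcc1* had log2 ratios of -0.85, -0.85 and -0.76 and *Rab24* of 0.91, short of the fold, and *Zfp62* was just short of it. Across all groups *Tsc22d3* was at 107, 258, 251, 116 and 110.5 CPM, high in CD3ε-/- sham and WT TAC, so that it differed from sham in opposite directions in the genotypes.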

How the data were processed

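CD45+ cells of 5 groups were profiled in 1 TAS-Seq library. The authors deposited raw counts of reads per gene and cell (27809 genes, 5363 columns), after barcode filtering and error correction. The submitters' processing notes name Bowtie2 2.4.2, cutadapt 2.10 and GRCm38. Hashtag calls in the column names gave the groups, and 48 columns the authors called doublets or undetected were not used. Doublets within a group cannot be seen by hashtags, and no other doublet caller was run.

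Cells with at least 500 genes and a mitochondrial share of at most 0.4 were kept. Counts were summed over the members of a group and scaled to 1000000 reads (CPM). With 1 pool per group no test was run. Shares have exact (Clopper-Pearson) and levels exact Poisson 95% intervals, which cover counting error only, since reads are not molecules. For equal depth, cells were thinned to 69429 reads. Ratios of groups have 10 CPM added. The steps were tested on simulated data. Python 3.11.15, numpy 2.4.6, pandas 2.3.3, scipy 1.17.1 and matplotlib 3.10.9 were used. The cDC2-like, macrophage-like and B cell-like cells were set by marker limits of the same kind.

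The rule of the cells and the 26 gene lists, with 391 of 393 symbols matched, were chosen with earlier results of these data known. Genes were named as markers, as the 20 of the largest ratio to all other kept cells, as up to 8 per direction and comparison whose shares of thinned cells with a read had intervals apart, and as up to 4 per list, those of the highest level or the most extreme ratio. Other genes beside list counts were chosen after their values were seen. So were the denominator of dendritic cells, the limit of 5 interferon genes, the counts over all list members, the promoters, and the values without cells with a macrophage gene or without the cell with the most reads of a list. Alternatives changed the CPM added, the least level, the marker limit, thinning, means over cells, and the cells left out. Some genes that met these rules are not reported here.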

Additional observations from a re-analysis of the deposited data

Results flagged for a closer look

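The difference between TAC and sham in cDC1-like cells had opposite signs in WT and CD3ε-/- mice for 4 values. None of these differences was tested, since each group was 1 pool, so no direction is established by them. The share of cDC1-like cells was 0.45 points higher in WT TAC and 1.85 points lower in CD3ε-/- TAC than in the sham group of the genotype, which is a difference of -2.31 points. The interval of the WT value, for counting error, ran from -1.10 to 1.89 points. With cells thinned before the rule both genotypes went the same way, with -0.68 points in WT and -3.65 points in CD3ε-/- mice. The share of dividing cells was lower in WT TAC and higher in CD3ε-/- TAC, a difference of 4.90 points, with intervals that overlapped in all groups. *Klhl6* had a log2 ratio in CD3ε-/- mice that was -2.47 from that in WT mice, and for *Tsc22d3* the difference was -2.25.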

How the results depend on the processing

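No paired analysis was possible because each group was 1 pool of cells. For the same reason no replicate could be left out. Thinning each cell before the rule gave shares of 5.39, 5.73 and 4.70% in WT sham, CD3ε-/- sham and WT TAC, and a difference of -3.65 points between the CD3ε-/- groups. With 1 gene fewer needed, 10.2% of WT TAC members were mature. Under an alternative the sign changed for 1 difference in shares (TAC to sham in WT, -0.68 points with thinning), for 2 of 646 values of single genes, neither of a gene past the fold, and for 137 of 1388 list medians. Of these 137 medians, 7 had a reported value past the fold. Over all list members with a read, the interferon median of CD3ε-/- TAC against WT TAC went from -0.50 to 0.19 without the cells with the most reads of the list. That of the group labelled CD8-depleted TAC against WT TAC went from 0.35 to -0.65 without the cells with a macrophage gene. It went to 0.73 without the cells with the most reads and to 1.67 without dividing cells. The lysosomal median in WT went from 0.34 to -0.13 without the cells with a macrophage gene. Of 45 shares 42 stayed within their interval, and of 646 values of single genes 599 kept their side of the fold.

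The counts of genes past the fold moved most. With 50 CPM added they were 28 higher and 47 lower for TAC against sham in WT, 82 and 48 in CD3ε-/- mice, 9 and 31 for CD3ε-/- sham against WT sham, 38 and 19 for CD3ε-/- TAC against WT TAC, and 31 and 8 for the group labelled CD8-depleted TAC against WT TAC. In the same order, without a least level they were 455 and 388, 800 and 552, 410 and 557, 438 and 409, and 297 and 306, and with a least level of 100 CPM 48 and 49, 143 and 70, 22 and 38, 52 and 32, and 38 and 15. With 1 CPM added, the higher genes in WT were 195, those of CD3ε-/- sham 161, the lower genes of CD3ε-/- TAC against WT TAC 172, and those labelled CD8-depleted TAC 156 higher and 115 lower. With the mean of cells, the lower genes of the CD3ε-/- groups were 260, the higher genes of CD3ε-/- sham 153, and the last comparison had 171 and 104. Without the cell with the most reads of a gene, 58 were lower in WT TAC, 85 lower in CD3ε-/- sham, 65 higher in CD3ε-/- TAC than in WT TAC and 45 higher in the last comparison. Without dividing cells the CD3ε-/- groups had 490 and 283 and the sham groups 184 and 208. With 3 of 4 markers needed, 103 were lower in the last comparison. Without members with a macrophage gene there were 205 lower in WT TAC, 296 lower in CD3ε-/- TAC than in its sham group, 174 and 235 between the sham groups, 266 and 216 between the genotypes after TAC, and 180 and 159 in the last comparison. The cause of these moves was not tested. Reads of a single cell, and the 16 members of CD3ε-/- TAC, limit every level given here.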
